A study of Rana pirica with 14 samples.

Results

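Fibroblast growth factors (FGFs) and their receptors were followed in tail tissue of Rana pirica, a frog whose tadpoles change tail and body shape when predators are near. The array carried 16 probe sets for them, out of 15491 tested: 9 for the ligands fgf2, fgf3, fgf4, fgf8, fgf9 and fgf20, and 7 for the receptors fgfr1, fgfr2, fgfr3 and fgfr4. A probe set was included when its only annotated symbol, without the suffix .L or .S, was 1 of these 10 names, among 6505 gene names on the array. Tails were taken on day 8 from tadpoles, before hind limb growth, in 5 groups. Cont tadpoles (n = 2 arrays) had no predator, Drago tadpoles (n = 3) lived with dragonfly larvae for 8 days, and Salam tadpoles (n = 3) lived with larval salamanders for 8 days. In −Drago and −Salam (n = 3 each) the same predators were present for 4 days and absent for the 4 days that followed. The paper states that dragonfly larvae were caged and harmed no tadpoles, whereas salamanders bit some tadpoles and killed a few. Kind of predator and injury therefore cannot be told apart where the predators are compared. Presence of the predator and injury cannot be told apart where a salamander group is set against Cont. By the methods, the number of predators in an aquarium differed between the predators as well. Arrays of 1 group are biological replicates by their labels, whereas the methods state that the tails of all tadpoles of a treatment were combined before extraction. Whether the arrays of a group share 1 pool of tissue is not settled, so the p-values measure the spread between arrays, which may be technical.

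FGFs are secreted signals that bind receptor tyrosine kinases at the cell surface together with heparan sulfate, a sugar chain carried by syndecans and glypicans. A bound receptor passes the signal through the adaptor FRS2 and the Ras and MAP kinase cascade to transcription factors of the ETS, T-box and CDX families, and feedback inhibitors such as sprouty proteins and DUSP6 limit it. In vertebrate embryos FGF4 and FGF8 act in the tail bud, where they help to keep posterior mesoderm growing, and FGF signalling is also needed when an amphibian tail or a fish fin regrows.

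The array was designed for Xenopus laevis, so the RNA was measured across species. The suffixes .L and .S name the copies of a gene on the long and the short chromosome of a pair in Xenopus laevis and say nothing of gene copies in Rana pirica. The values are log2 signals centred by the authors, so that every probe set has a median of 0 across the 14 arrays. The signal level is lost, and levels cannot be compared between probe sets or checked for presence, for the tissue's marker genes as for the FGF genes. In whole tail tissue, fewer cells of a type and less RNA per cell cannot be told apart. The added control transcript Dap split the arrays, exceeding 3 on 6 of them (replicate 1 of Cont and of −Salam, replicates 1 and 2 of Drago and of Salam) and reaching no more than -0.61 on the other 8, which hold every −Drago array. Of 8 marker lists for tail cell types, 0 set the Cont arrays apart from the other 12 and 0 set the −Salam arrays apart from the other 11. A single list, notochord and cartilage, set −Drago apart from −Salam. Against Cont alone, notochord and cartilage was higher without overlap in Drago and −Drago. Epidermis was lower without overlap in Salam, and blood was so in −Drago. Immune cells and vessels were lower without overlap in both salamander groups. This makes 3 of the 8 lists for Salam, 2 for each removal group and 1 for Drago. Of all single probe sets, 19.8% to 20.5% failed to overlap with Cont in the same comparisons. The counts of lists were not tested against that share, and no shift in cell types is read from them. Single probe sets at an unadjusted p under 0.05 by limma were few. Of the 5 for vessels, 1 was higher and 1 lower than Cont in Salam, and 0 differed in −Salam. For immune cells 0 of 7 did in either salamander group. The counts were 0 of 10 for epidermis in Salam and 0 of 7 for blood in −Drago. Of the 7 for notochord and cartilage, 1 was higher in Drago and 1 in −Drago. What strand is read by the 4 FGF probe sets with .A1 in their identifier (fgf2, and B of fgf8.L, fgfr2.L and fgfr4.L) is not given in the sources used here, so they may not read the mRNA of their gene.

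None of the 16 FGF probe sets passed the test in any comparison. At an adjusted p under 0.05 in limma, 0 were called in the F test over the 5 groups, where 0% of all probe sets were, and 0 in each of the 8 comparisons between groups, where the share of all probe sets was 0% in 7 and 0.00646% (1 probe set) in Drago against Salam. At an unadjusted p under 0.05, 1 FGF probe set stood in the F test, against 5.86% of all probe sets. Against Cont there was 1 in Drago (5.65% of all), 0 in Salam (5% of all), 1 in −Drago (4.94% of all) and 2 in −Salam (5.69% of all), and every one of these was an fgf8.L probe set lower than in Cont. Between predator groups there were 0 in Drago against −Drago (5.74% of all), 1 in Salam against −Salam (5.49% of all), 0 in Drago against Salam (5.71% of all) and 2 in −Drago against −Salam (5.4% of all). With 16 probe sets these counts are near the background, and the values that follow describe the arrays without a call. In at least 1 group, 11 of the 16 lay over 2 fold from Cont (58.4% of all probe sets), 4 over 3 fold (25.2% of all) and 2 over 5 fold (5.78% of all), and these last were both fgf8.L. That last count was 1 without Drago replicate 3, and 4 without Cont replicate 1 or without −Drago replicate 2. The FGF probe sets were about as variable as others, with a median SD within groups of 0.989 against 0.984 over all probe sets, and the median SE of a difference from Cont was 0.860 over all probe sets on the log2 scale.

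fgf8, a ligand of the tail bud and of other growing margins of the embryo, had 3 probe sets, all annotated fgf8.L, and 2 of them were highest in Cont. They are called A, B and C here, in the order of their identifiers. For probe set A the centred log2 values were 1.91 and 1.78 in Cont, and -0.78, 0.44 and -1.44 in Drago. They were 0.74, -0.16 and -0.03 in Salam, 0.03, -1.99 and 1.39 in −Drago, and -0.08, 0.05 and -1.24 in −Salam. All 12 arrays of the 4 predator groups lay below both Cont arrays, a pattern shown by 0.994% of all probe sets and by 1 of the 16 FGF probe sets. The opposite pattern, all 12 above both, was shown by 1.17% of all and by 0 of the 16. The predator groups overlapped one another, and −Drago spread most widely, with 1 array close to Cont and 1 the lowest of all 14. The mean was 1.85 ± 0.0886 (SD, n = 2) in Cont and -0.60 ± 0.951 (SD, n = 3) in Drago, a difference of -2.44 (SE 0.87, 95% interval -4.31 to -0.58) or 5.44 fold lower. By limma this had an unadjusted p of 0.0138 and an adjusted p of 0.808. The differences from Cont were -1.66 in Salam (adjusted p = 0.985), -2.04 in −Drago (adjusted p = 0.966) and -2.27 in −Salam (adjusted p = 0.870), all by limma and all sharing the same 2 Cont arrays. Without −Drago replicate 2, the difference of −Drago from Cont was -1.13. Within the arrays high in Dap and within those low in it, Drago differed from Cont by -2.08 and -3.22, Salam by -1.62 and -1.82, and −Salam by -1.99 and -2.38. −Drago could be set against Cont among the low arrays alone, where it differed by -1.97. Each of these differences within the Dap split rests on 1 Cont array and on 1 to 3 arrays of the other group. On the mean of the notochord and cartilage list, Cont lay between -0.52 and -0.19 and Drago between 0.16 and 0.46. Over the 14 arrays probe set A correlated at -0.42 with that list and at 0.48 with immune cells. It correlated at -0.62 with fin mesenchyme and fibroblasts, the strongest of the 8 lists. That list averaged -0.46 in Cont and -0.10, -0.10, -0.07 and 0.05 in Drago, Salam, −Drago and −Salam, each overlapping with Cont. The part of these lists in the differences was not tested.

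Probe set C of fgf8.L was lowest after removal of the salamander. Its values were 1.23 and 0.78 in Cont, 0.04, 0.56 and 0.25 in Drago, and 1.03, -1.51 and -1.09 in Salam. In −Drago they were -1.02, 0.27 and -0.04, and in −Salam -2.53, -1.93 and -1.92. The 3 −Salam arrays were the lowest of the 14, as they were for 0.329% of all probe sets. That share counts this group and direction alone, and the like shares for other groups were not taken, so it does not measure how rare such a pattern is. Salam was split between 1 array at the level of Cont and the remaining pair far below it. −Salam averaged -2.13 ± 0.348 (SD, n = 3) against 1.004 ± 0.318 (SD, n = 2) in Cont, and it was lower by a difference of -3.13 (SE 0.73, 95% interval -4.69 to -1.57) or 8.76 fold lower. By limma the unadjusted p was 0.000682, the 11th smallest in that comparison, and the adjusted p was 0.617. Leaving out 1 array at a time kept this difference between -3.36 and -2.91. Within the Dap split it was -3.76 (1 array of −Salam against 1 of Cont) and -2.71 (2 against 1). On the mean of the vessel list Cont lay at 0.34 to 0.38 and −Salam at -1.49 to 0.10, and on that of the immune list Cont lay at 0.03 to 0.20 and −Salam at -0.71 to -0.04. In Salam, the vessel list lay at -0.53 to -0.15 and the epidermis list at -0.41 to -0.14, against 0.09 to 0.23 in Cont for epidermis. Over the 14 arrays probe set C correlated at 0.59 with the epidermis list and at 0.51 with the vessel list, and the part of these lists in its differences was not tested. The other groups differed less from Cont in these data, by -0.72 in Drago, -1.53 in Salam (adjusted p = 0.980) and -1.27 in −Drago. Salam lay 1.61 above −Salam (SE 0.65, adjusted p = 0.893 by limma), and this shrank to 0.83 without Salam replicate 1. Within the arrays high in Dap that difference was 2.29 (2 Salam arrays against 1), and within those low in it 0.84 (1 against 2). −Drago lay 1.86 above −Salam (adjusted p = 0.894 by limma), and among the arrays low in Dap it lay 1.66 above it. The F test over the 5 groups gave an unadjusted p of 0.00597 and an adjusted p of 0.704 in limma, the smallest among the FGF probe sets.

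Probe set B of fgf8.L did not share the high Cont level, and it is one of the probe sets of unstated strand. Cont read -1.19 and 0.08, and the predator groups gave differences of 0.75 (Drago), -0.27 (Salam), 0.57 (−Drago) and 0.55 (−Salam), each with an SE of 0.76. One Salam array, at -2.50, was its lowest. Over the 14 arrays the correlation between the fgf8.L probe sets was 0.36 for A and C, the pair high in Cont, and -0.38 and -0.39 between each of them and B. Probe sets of 1 array share its hybridization, so these correlations are descriptions. Which Rana pirica transcript each of the probe sets reads is not known here.

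**Figure D1:**
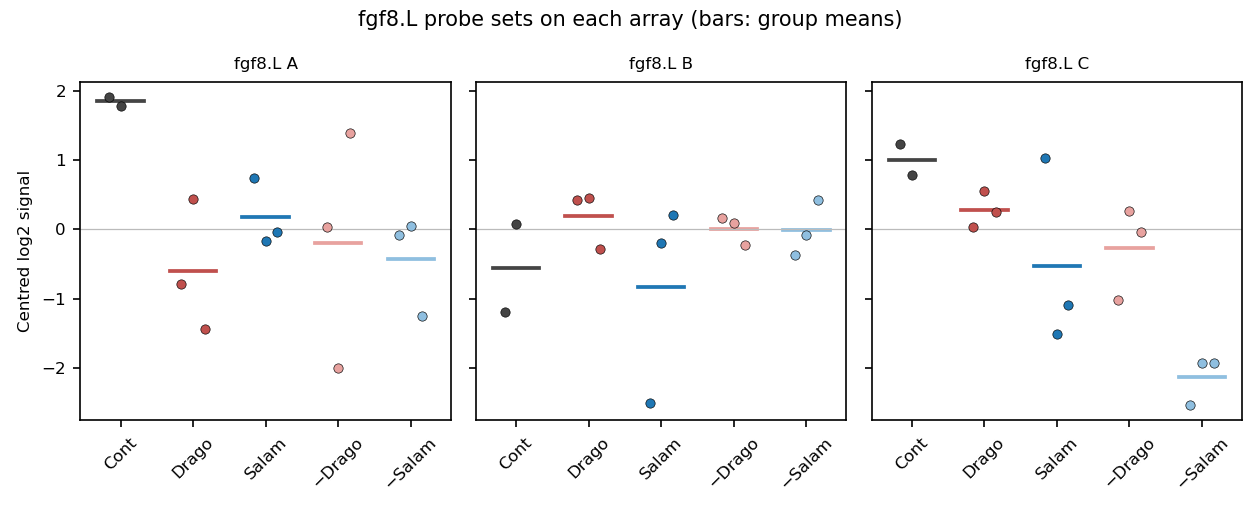
Centred log2 signal (y axis) of the 3 fgf8.L probe sets on each of the 14 arrays, by group (x axis), with points for arrays and bars for group means. Both Cont arrays of probe set A (1.91 and 1.78) lie above the 12 others, and the 3 −Salam arrays of probe set C (-2.53 to -1.92) lie below the 11 others.

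The remaining ligands did not approach the threshold, and no p of theirs was under 0.05 even before adjustment. fgf4, known in Xenopus as embryonic FGF and linked there to brachyury in the mesoderm, was read through both copies, and both were highest in Drago. The fgf4.S probe set read 1.55, 0.58 and 1.71 in Drago against -0.03 and -0.38 in Cont, with no overlap, a difference of 1.49 (adjusted p = 0.908 by limma). Groups failed to overlap in this comparison, in either direction, for 3 of the 16 FGF probe sets and for 19.8% of all. The fgf4.L probe set lay at -0.19, 0.46 and 1.35 in Drago and at -1.11 and -0.17 in Cont, so that the groups just overlapped, and it differed by 1.18. fgf4.L and fgf4.S correlated at 0.36 over the arrays.

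fgf2, basic FGF, a ligand that leaves cells without a signal peptide, was also highest in Drago, where its values were 1.41, 2.96 and -0.15, but the third of these lay within the Cont range of -0.77 to 0.60. fgf3, which takes part in inner ear induction, averaged 0.85 in Salam and -0.65 in Drago, with overlapping arrays and a difference of -1.50 between the predators (adjusted p = 0.908 by limma). fgf20, needed in zebrafish to start fin regrowth, lay between -1.13 and -0.07 in Salam and between 0.07 and 0.43 in −Salam. These groups did not overlap, as for 3 of the 16 FGF probe sets and 10.1% of all, and they differed by -0.93. fgf9, which carries signals from epithelium to mesenchyme in mammals, was the steadiest member. Its 14 values spanned 0.987 log2 units, against a median span of 3.29 over all probe sets, and its SD within groups of 0.349 was lower than for all but 3.38% of them.

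**Figure D2:**
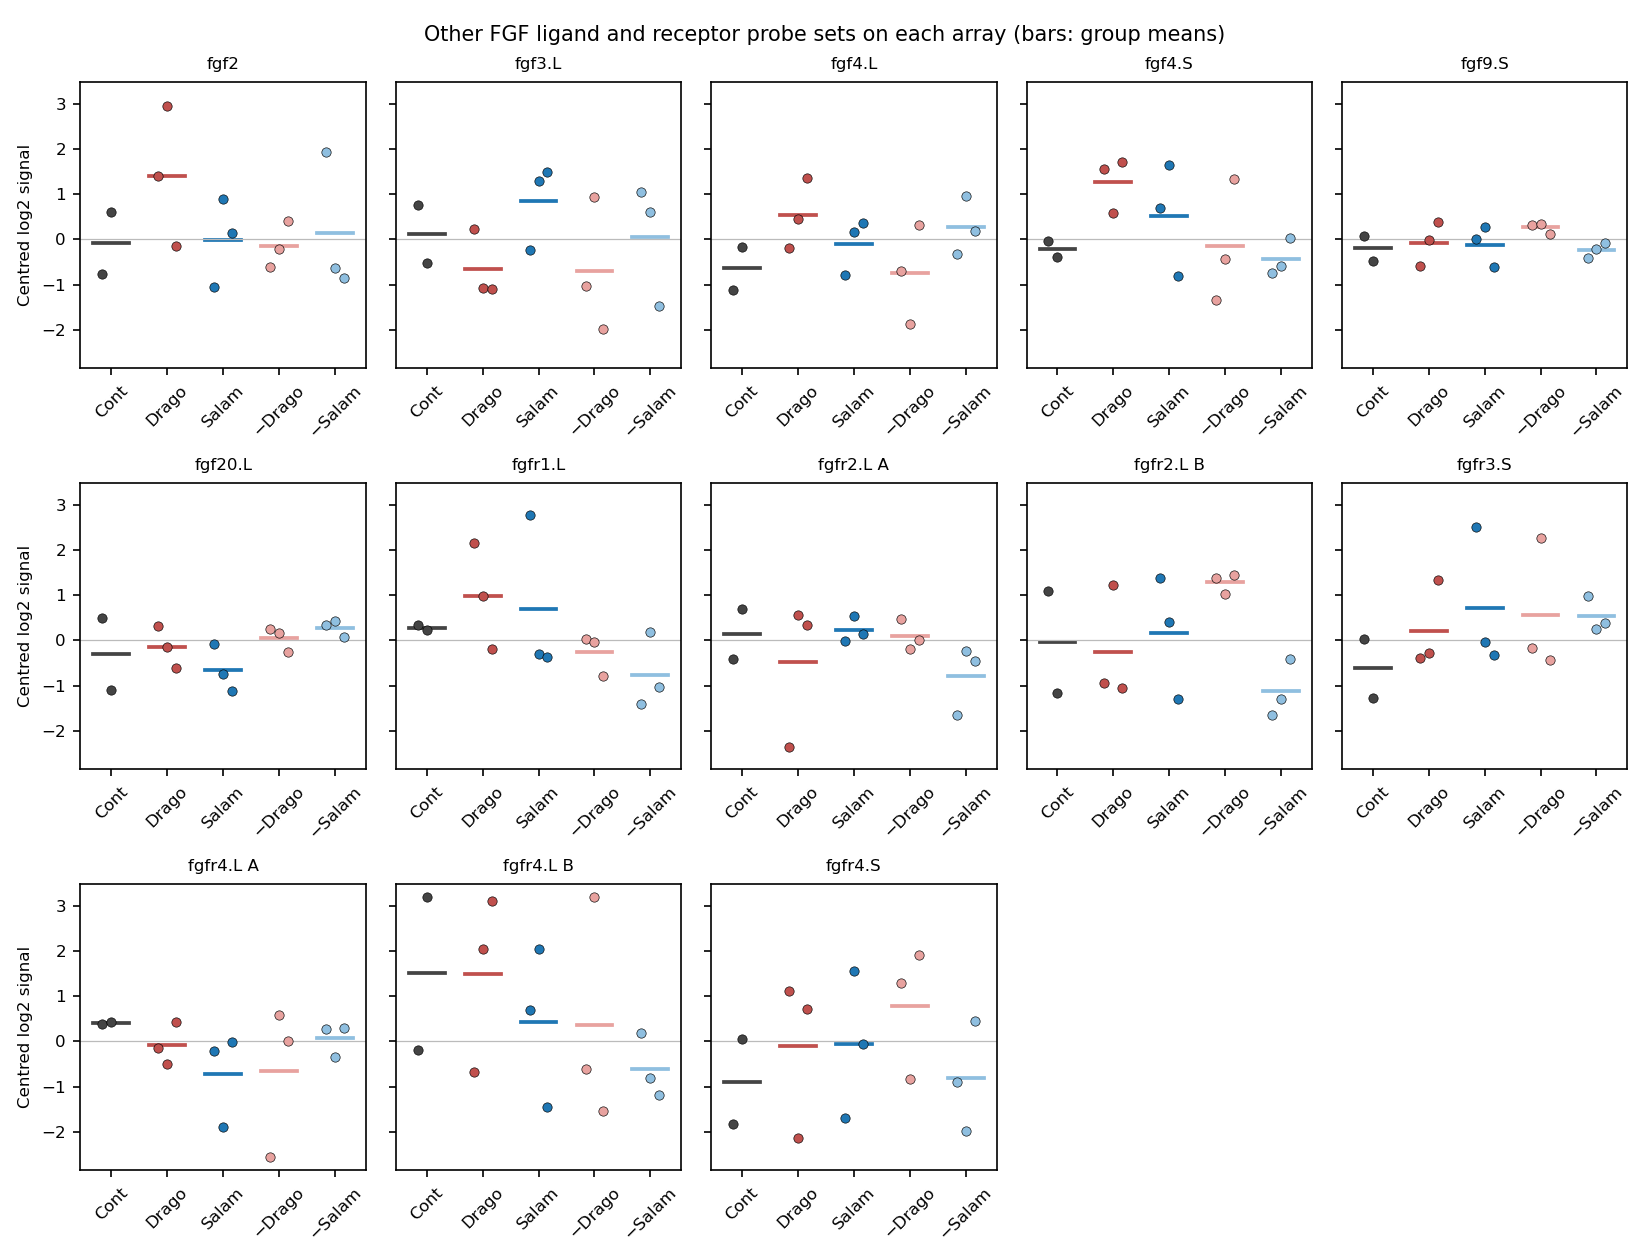
Centred log2 signal (y axis) of the other 13 FGF probe sets on each of the 14 arrays, by group (x axis), with points for arrays and bars for group means. fgf9.S stays within 0.987 log2 units, whereas fgfr4.L B has an SD within groups of 1.92.

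Among the receptors, a single probe set of fgfr2 gave the widest separation, and it lay between the removal groups. That probe set, called B here, is one of unstated strand and may not read fgfr2 mRNA. fgfr2 answers ligands of the mesenchyme or the epithelium according to its splice form. Of its 2 probe sets, both annotated fgfr2.L, B read 1.37, 1.03 and 1.45 in −Drago and -1.64, -1.30 and -0.41 in −Salam. It read 1.09 and -1.16 in Cont, -0.94, 1.24 and -1.04 in Drago, and 1.39, 0.41 and -1.30 in Salam. The removal groups did not overlap with each other, as for 4 of the 16 FGF probe sets and 10.4% of all, while Cont, Drago and Salam each held arrays at both ends. −Drago exceeded −Salam by 2.40 (SE 0.82, 95% interval 0.65 to 4.15), or 5.28 fold, with an unadjusted p of 0.0106 and an adjusted p of 0.894 by limma. Among the arrays low in Dap the difference was 2.14, and the arrays high in Dap hold none of −Drago. The notochord and cartilage list averaged 0.07 to 0.63 over its 7 probe sets (tbxt, also in the pathway list used later, among them) on the −Drago arrays and -0.54 to -0.25 on the −Salam arrays, and its part in the fgfr2.L and fgf8.L differences between these groups was not tested. The other fgfr2.L probe set, A, was 0.88 higher in −Drago than in −Salam, and the pair correlated at 0.37.

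The interaction of predator and removal, added after the data were seen, was not called for fgfr2.L B. Salam minus −Salam exceeded Drago minus −Drago by 2.81 (SE 1.16), with an unadjusted p of 0.0286 and an adjusted p of 0.855 for the interaction in limma. It was the only FGF probe set of the 16 at an unadjusted p under 0.05 in that test, in which 5.55% of all probe sets stood and 0 passed after adjustment. A count of 1 among 16 is near that share. Within the Dap split, Salam minus −Salam was 2.54 among the arrays high in Dap (2 against 1) and -0.44 among those low in it (1 against 2). Drago minus −Drago could be taken among the low arrays alone (1 against 3), at -2.33.

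The other receptors had no p under 0.05 before adjustment, although some groups did not overlap with Cont. fgfr1.L lay below Cont without overlap in −Drago and −Salam, fgfr4.L A did so in Salam and −Salam, and fgfr3.S lay above Cont in −Salam. Groups failed to overlap with Cont, in either direction, for 2 of the 16 FGF probe sets in Salam (20.1% of all), 4 in −Drago (20.5% of all) and 5 in −Salam (20% of all). fgfr1, a broadly expressed receptor of mesoderm, reached 2.16 in 1 Drago array and 2.78 in 1 Salam array, while the rest of its 14 values ran from -1.40 to 0.98. Both arrays were replicate 1 of their group and had the highest Dap means, 4.15 and 4.17, whose part in these values was not tested. fgfr3, which restrains growth of cartilage in mammals, averaged above Cont in all 4 predator groups. Its differences were 0.83 (Drago), 1.33 (Salam), 1.17 (−Drago) and 1.15 (−Salam), each with an SE of 0.97. In Salam 1 array stood at 2.52 and the others at -0.04 and -0.32. In −Drago 1 array stood at 2.28 and the others at -0.16 and -0.43, so these means rest largely on 1 array each. All 4 groups averaged above Cont for 2 of the 16 FGF probe sets and for 23% of all, and below it for 4 and for 24%. fgfr4, the receptor of FGF19 in mammalian liver, had 3 probe sets that did not follow one another, with correlations of 0.14 within fgfr4.L and of -0.35 and -0.14 between fgfr4.L and fgfr4.S. Of the fgfr4.L pair, B was the least steady of the family, with Cont arrays at -0.19 and 3.21 and an SD within groups of 1.92, above that of 99.8% of all probe sets.

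Receptors and ligands were also set side by side, a split that was not planned. The 3 comparisons that involve −Salam had the receptor medians farthest from 0 and are given first. In Salam, 6 of 7 receptor probe sets averaged higher than in −Salam, with a median difference of 1.01, while 49.6% of all probe sets were higher and the median of all was -0.01. Of the 9 ligand probe sets 5 were higher, with a median of 0.12. Part of the receptor difference rests on Salam replicate 1, where fgfr1.L read 2.78 and fgfr3.S 2.52. The other Salam arrays read -0.31 and -0.37 for fgfr1.L, and -0.04 and -0.32 for fgfr3.S. For fgfr3.S those lay below all −Salam arrays (0.25 to 0.97). The receptor count without Salam replicate 1 was not taken. Against Cont, 5 of the 7 receptor probe sets averaged lower in −Salam, with a median of -0.92, as did 5 of the 9 ligand probe sets, with a median of -0.04, where 49.4% of all probe sets were higher and the median of all was -0.01. In −Drago, 6 of the 7 receptor probe sets averaged higher than in −Salam (median 0.88) and 5 of the 9 ligand probe sets (median 0.02), against 49.7% of all probe sets (median -0.01). These comparisons share the −Salam arrays, and several of the probe sets share a gene, so the counts are not of independent members. The strand is not given for fgfr2.L B and fgfr4.L B, which were higher in Salam than in −Salam by 1.28 and 1.03. Both were also lower in −Salam than in Cont and in −Drago. The smallest unadjusted p among the receptors was 0.102 against Salam, 0.170 against Cont and 0.0106 against −Drago by limma, and no test of the receptors as a group was made. The comparisons without −Salam showed smaller receptor medians. Against Cont they were -0.02 in Drago, 0.20 in Salam and -0.04 in −Drago, with 3, 5 and 3 of the 7 higher. They were -0.34 in Drago against −Drago and -0.04 in Drago against Salam, with 3 of the 7 higher in each. The ligand medians were 0.16, 0.08, -0.05, 0.18 and 0.63 in the same order.

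**Figure D3:**
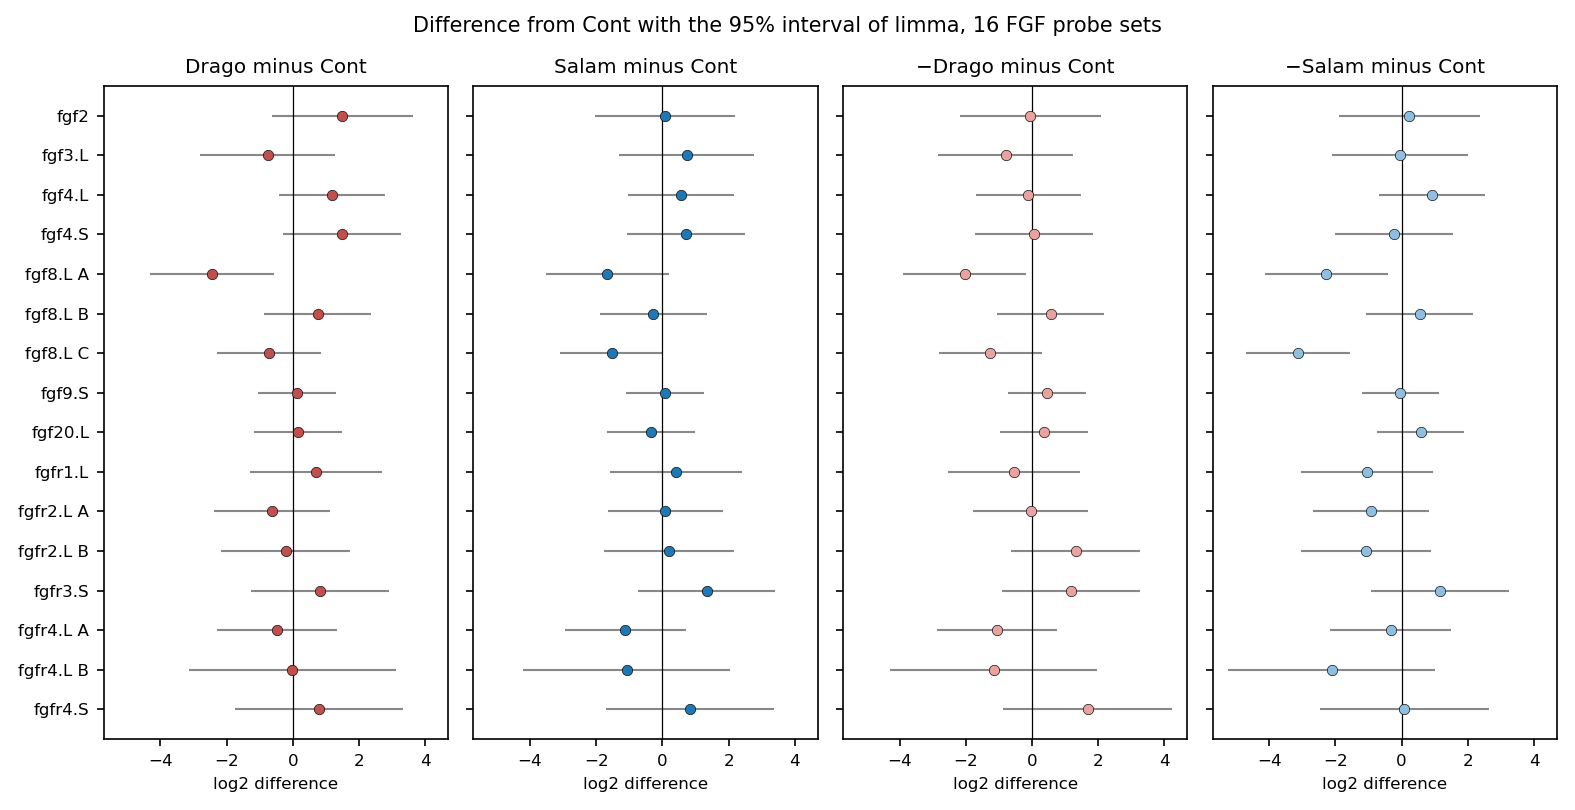
Log2 difference from Cont (x axis) of the 16 FGF probe sets (y axis) in each of the 4 predator groups, with 95% intervals from limma. fgf8.L C in −Salam (-3.13, interval -4.69 to -1.57) and fgf8.L A in Drago (-2.44, interval -4.31 to -0.58) lie farthest from 0.

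Another probe set bears the symbols xfgfra2 and fgfr1-a, an older spelling of fgfr1, and was not counted as a member because it has 2 symbols. It was looked up after the member values were known. It read 1.52 and 1.77 in Cont, -2.42, 1.05 and -0.68 in Drago, -1.11, 0.90 and 0.34 in Salam, 1.41, -0.34 and 0.98 in −Drago, and -1.66, -1.52 and -0.49 in −Salam. Both Cont arrays were above all others, as for 0.994% of all probe sets, a share that counts this direction alone. −Drago replicate 1 lay close below them at 1.41. It differed from Cont by -2.87 in −Salam (7.29 fold lower, adjusted p = 0.755 by limma) and by -2.32 in Drago (adjusted p = 0.837 by limma). Its correlation with the fgfr1.L probe set was 0.08, and fgfr1.L differed from Cont by 0.70 in Drago and by -1.04 in −Salam.

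The 16 probe sets did not move as a block. Their 120 pairwise correlations over the 14 arrays ran from -0.57 to 0.66 with a median of -0.03, and the 8 pairs of 1 gene ran from -0.39 to 0.37. The probe sets of other genes most like fgf8.L A were kpna3.L (r = 0.786), a nuclear import receptor, zmiz2.L (r = 0.781) and ptma.S (r = 0.775). Those most like fgf8.L C were tcf7l2.L (r = 0.857), a transcription factor of Wnt signalling, lamtor3-like.L (r = 0.854) and six3.S (r = 0.836), and for fgfr2.L B they were otud5.S (r = 0.878), mfsd14bl.S (r = 0.828) and ncor1.S (r = 0.815). They are the highest among the 9304 probe sets with 1 symbol and describe likeness over 14 arrays alone. How high the best of so many would reach by chance was not tested. The strand is not given for zmiz2.L, lamtor3-like.L and mfsd14bl.S, whose identifiers hold .A1.

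Of 80 further genes of the FGF pathway 38 were found, through 65 probe sets, and 0 passed the test against Cont in any group. At an unadjusted p under 0.05 stood 4 higher and 2 lower in Drago (9.23% of the 65), 3 and 1 in Salam (6.15%), 0 and 1 in −Drago (1.54%) and 2 and 3 in −Salam (7.69%), beside the shares of all probe sets given above. The feedback inhibitors, 6 probe sets of 4 genes that include sprouty 2 and dusp6, had 0 in any of the 4 comparisons. A further ligand, fgf10.S, had 2 probe sets and 0 at that level.

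In the cascade, one of the frs2.L probe sets, for the adaptor that docks to FGF receptors, was 1.72 higher in Drago (adjusted p = 0.837 by limma), whereas the other was 0.43 higher. map2k1.L, the kinase that activates ERK, differed from Cont by -1.86 in −Salam. Among target transcription factors cdx4.L, a posterior homeobox factor downstream of FGF, lay above Cont by 3.04 in Drago, 2.62 in Salam and 2.50 in −Salam (SE 0.74, adjusted p = 0.601, 0.763 and 0.662 by limma), and by 1.44 in −Drago. One ets1.L probe set differed from Cont by 2.19 in Salam while the other differed by -1.09, and ets2.S differed by 1.84 in Drago. One cdx1.S probe set differed by -2.28 in −Drago and the other by -0.73. tbxt.S, brachyury, differed by 0.45, 0.58, 0.01 and -0.13 in the 4 groups. The cell surface carriers of heparan sulfate differed in both directions. sdc2.S was at -2.44 and sdc1.L at -1.49 from Cont in Drago, sdc3.L at 1.54 in Salam, and sdc2.S at -1.46 in −Salam, while the pair of sdc2.L probe sets differed by 1.02 and -0.21 in Drago. The 2 gpc4.L probe sets went opposite ways in Salam, at -1.75 and 1.55. hs6st1.S, an enzyme that adds sulfate to these chains, was read by probe sets with opposite differences in −Salam, -2.08 and 1.75. In Drago they differed by -0.73 and 1.62 in the same order. The strand is likewise not given for pathway probe sets with .A1 in their identifier. They may not read the mRNA of their gene. Of those named, these are ets1.L at 2.19, cdx1.S at -2.28, sdc2.L at -0.21, gpc4.L at 1.55 and hs6st1.S at -2.08. The fgf10.S probe set at 0.37 in −Salam is a further case.

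**Figure D4:**
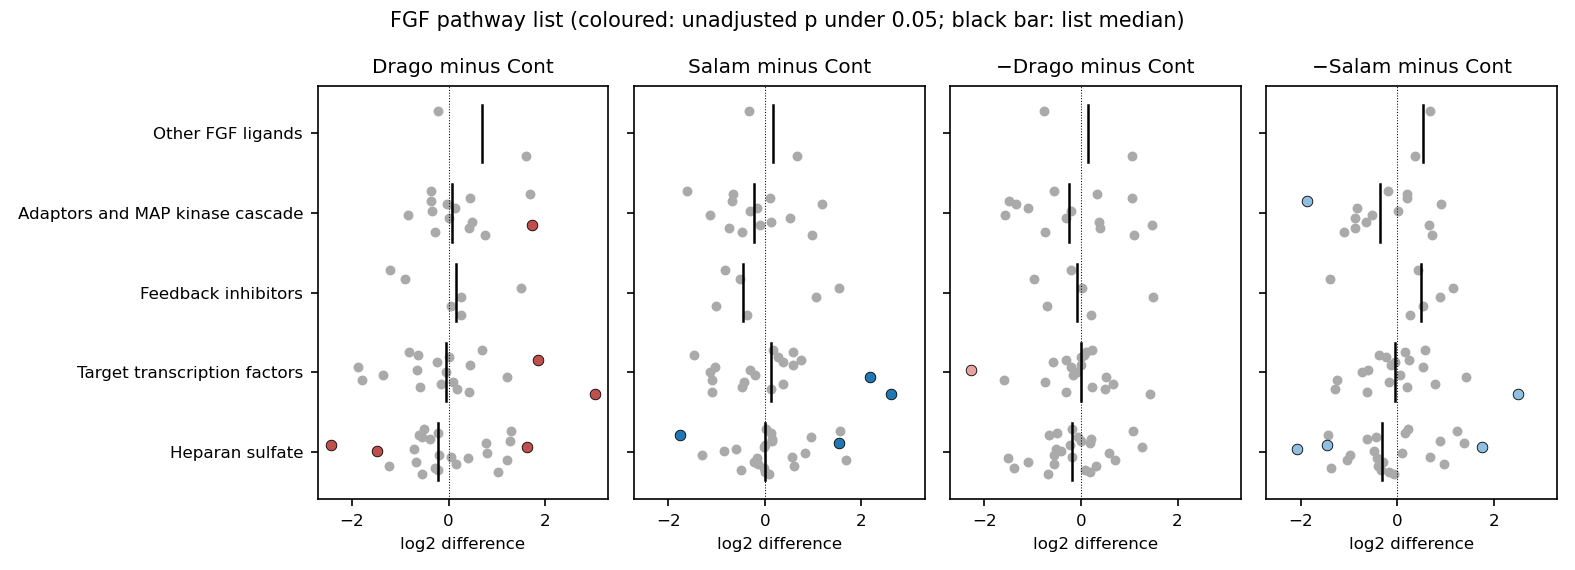
Log2 difference from Cont (x axis) of the FGF pathway probe sets in the 4 predator groups, arranged by role in the pathway, with coloured points at an unadjusted p under 0.05 and a black bar at the median of each role. The points spread on both sides of 0 in each role, except that both fgf10.S points lie above 0 in −Salam (0.37 and 0.69). The point of cdx4.L in Drago (3.04) lies farthest to the right.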

How the data were processed

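The values were used as deposited: log2 MAS5 signals that the authors obtained with GCOS and GeneSpring and baseline-corrected to each probe set's median across samples. A control array that the study left out for failed hybridization is not used here. Of 15611 probe sets, 120 for added control transcripts were left out. Names came from GEO's platform annotation, which can be old and gives 1 symbol for 9304 probe sets, several for 195 and none for 5992. No filter on low signals could be applied, since the level is lost, and the precision is limited by the number of arrays.

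The 15491 probe sets were fitted with limma 3.58.1 (R 4.3.3), all 14 arrays together and a mean for each group, which left 9 residual and 5.53 prior degrees of freedom. p-values, two-sided, were adjusted by Benjamini-Hochberg over all probe sets within each of the 8 comparisons and the F test, with a threshold of 0.05. For 3 arrays against 3, a two-sided exact permutation test cannot give a p below 0.1. Against the 2 Cont arrays fewer arrangements exist, and no such limit was computed there. Folds are differences of mean log2 values put back on the linear scale. Array by array values are given in full for FGF probe sets at an unadjusted p under 0.05 in any test. The same holds for those over 5 fold from Cont. For each of these, the 3 probe sets with 1 symbol and the highest Pearson r are named. Values on single arrays of other members, such as fgf4.S, fgf4.L and fgf2 in Drago, were picked outside this rule. Pathway genes are named at an unadjusted p under 0.05 against Cont, and tbxt.S, fgf10.S, sdc2.L, further probe sets of named genes and the feedback inhibitors beside them after their values were seen. The members, lists and rules were chosen with earlier results of these data known.

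Alternatives were quantile scaling, centring arrays, only the groups compared, ordinary and robust tests, the replicate number as a block, a term for the Dap split, linear means, other fold limits, counting probe sets with several symbols, and leaving out each array. Added after the data were seen were the differences within the Dap split, the interaction of predator and removal, and the probe set with the symbols xfgfra2 and fgfr1-a. The split into receptors and ligands was not planned either. Nor were the shares of probe sets with all other arrays beyond Cont or with −Salam lowest. The pipeline was tested on simulated data. No probe or protein sequences were used here.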

Additional observations from a re-analysis of the deposited data

How the results depend on the processing

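Under every alternative that was run, 0 FGF probe sets were called in the F test and in each of the 8 comparisons, and the smallest adjusted p was 0.596. For the 24 differences of the 3 probe sets given array by array, 0 of 192 values changed sign under the scaling, test and block alternatives, with a term for Dap, or with linear means, and 11 of 336 did when 1 array was left out. These were, for fgfr2.L B, Drago minus Cont (-1.34 to 0.91), Salam minus Cont (-0.93 to 1.32), −Salam minus Cont (-2.21 to 0.041) and Drago minus Salam (-1.15 to 0.20), and, for fgf8.L A, Drago minus −Drago (-1.31 to 0.39) and −Drago minus −Salam (-0.56 to 1.14). Many of the values counted could not change sign. The ordinary and robust tests and the fit of only the groups compared keep the difference itself. Leaving out an array of a group outside the comparison keeps it too. Of 39 differences taken within the Dap split, 6 were opposite in sign to the whole, all for fgfr2.L B: Drago minus Cont (0.12 low), Salam minus Cont (-0.20 high, -0.14 low), −Salam minus Cont (0.30 low), Salam minus −Salam (-0.44 low) and Drago minus Salam (0.25 low). Each side of a difference within the split holds 1 to 3 arrays, and the Cont side always 1. By exact match of the names, counting probe sets with several symbols added 0 members, and an older spelling, fgfr1-a, added the 1 described above. The count of FGF probe sets over 5 fold from Cont was 2, with 11 at over 2 fold (58.4% of all) and 4 at over 3 fold (25.2% of all), and it ran from 1 to 4 when 1 array was left out. With 2 Cont arrays, leaving 1 out assumes that the lone array varies like the other groups.

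The deviations of 26 same-numbered pairs of arrays correlated between -0.02 and 0.02, and those of 52 differently numbered pairs between -0.03 and 0.03. The deviations of the 2 Cont arrays mirror each other, so their pairs are not independent. These correlations showed no pairing by replicate number, but Dap followed the number in part. Replicate 1 was high in Dap in every group except −Drago, and replicate 3 was low wherever a group had one. Whether same-numbered arrays were processed together was not tested. With the replicate number as a block, 0 FGF probe sets were called in any comparison, and 864 of all probe sets stood at an unadjusted p under 0.05 in Drago against Cont, where 876 did without it. The 1 probe set called in Drago against Salam was not called with the block, and the cause was not tested.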
